A study of Mus musculus with 5 samples.

Results

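NRF2, encoded by *Nfe2l2*, is the transcription factor that switches on antioxidant genes, and the 10 genes described here are *Nfe2l2* itself and 9 genes that it is known to activate. They were chosen by name, with earlier results of these data known: the heme oxygenase gene *Hmox1*, the quinone reductase gene *Nqo1*, the glutathione synthesis genes *Gclc*, *Gclm*, and *Slc7a11*, and the thiol reduction genes *Txnrd1*, *Srxn1*, *Gsr*, and *Prdx1*. All 10 were found among the 17057 genes with a count in the RNA-Seq data, and all 10 were among the 12576 genes that passed the filter on low counts. RNA was sequenced from BALB/c macrophages grown out of the bone marrow of young adult mice with M-CSF-1. They shared the medium of either WT 4T1 cells (2 libraries) or *Adam17*-/- 4T1 cells (3 libraries), a line of mammary carcinoma from mice. The labels give no time, and the study describes macrophage cocultures of 48 hours. The cancer cells sat behind a porous membrane, and the macrophages sequenced carried an intact *Adam17* gene, and the comparison asks how macrophages differ when the sheddase ADAM17 is missing from the neighboring cancer cells. The *Adam17*-/- line was made by CRISPR/Cas9 editing and has 1 designation in all 3 libraries, so features of that line cannot be told apart from the loss of *Adam17*.

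In resting cells, the adaptor KEAP1 holds NRF2 for degradation by a CUL3 ubiquitin ligase. Oxidants and electrophiles modify KEAP1, NRF2 then accumulates, pairs with a small MAF protein, and binds antioxidant response elements (AREs) near its target genes, while BACH1 competes for the same elements and is removed by heme. In macrophages, the pathway is known for handling the oxidants that these cells make and the heme they take up from engulfed red cells.

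In macrophages cocultured with *Adam17*-/- 4T1 cells, 6 of the 10 genes fell, by small amounts: *Hmox1*, *Gsr*, *Slc7a11*, *Txnrd1*, *Srxn1*, and *Nfe2l2*. Their log2 fold changes lay between -0.43 and -0.23, a loss of 26.0% for *Hmox1* at one end and of 14.5% for *Nfe2l2* at the other. *Gclc*, *Gclm*, *Prdx1*, and *Nqo1* did not pass the test. A gene passed when its p in edgeR's quasi-likelihood test, after Benjamini-Hochberg adjustment over all genes tested, was at most 0.05. Of all genes tested, 16.8% passed as lower and 14.9% as higher. None of the 10 genes passed as higher, and 0 did so at an unadjusted p of 0.05 in edgeR or at an adjusted p of 0.05 in DESeq2. At the stricter rule that also asks for a log2 fold change of 1 or more in size, 0 of the 10 genes passed in either direction, where 3.36% of all genes passed as higher and 0.867% as lower. Every *Adam17*-/- library lay below both WT libraries in 7 of the 10 genes, which was so for 29.7% of all genes tested, and above both in 0, against 28.4%. The median log2 fold change of the 10 genes was -0.30, against 0.01 over all genes tested.

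The call of *Hmox1* was the one that held in each of the 14 alternative fits. The count of 6 changed with the scaling and when 1 *Adam17*-/- library was left out. It was 1 gene, *Hmox1*, when libraries were scaled by size only and in both tests on FPKM, 2 with upper quartile factors, and 4 with DESeq2. It was 1 without *Adam17*-/- replicate 1, 2 without replicate 2, and 2 without replicate 3. Calls over all genes fell in these fits too, from 2114 lower in the main fit to 926, 1168, and 1237. With library size only, 1077 of all genes passed as lower, and in the tests on FPKM 1016 and 1011. Upper quartile factors gave 1624 and DESeq2 gave 1893. How much of the smaller counts came from fewer samples was not tested. Under library size only, all genes tested had a median log2 fold change of 0.16. Measured from that median, *Hmox1* stood at -0.44, *Gsr* at -0.37, *Slc7a11* at -0.32, *Txnrd1* at -0.31, *Srxn1* at -0.30, and *Nfe2l2* at -0.23, each the same to 2 decimals as its distance from the median of all genes under the main scaling. A change of scaling moves all genes by nearly the same amount. These equal distances therefore follow from the calculation and are no test of the decreases.

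**Figure D1:**
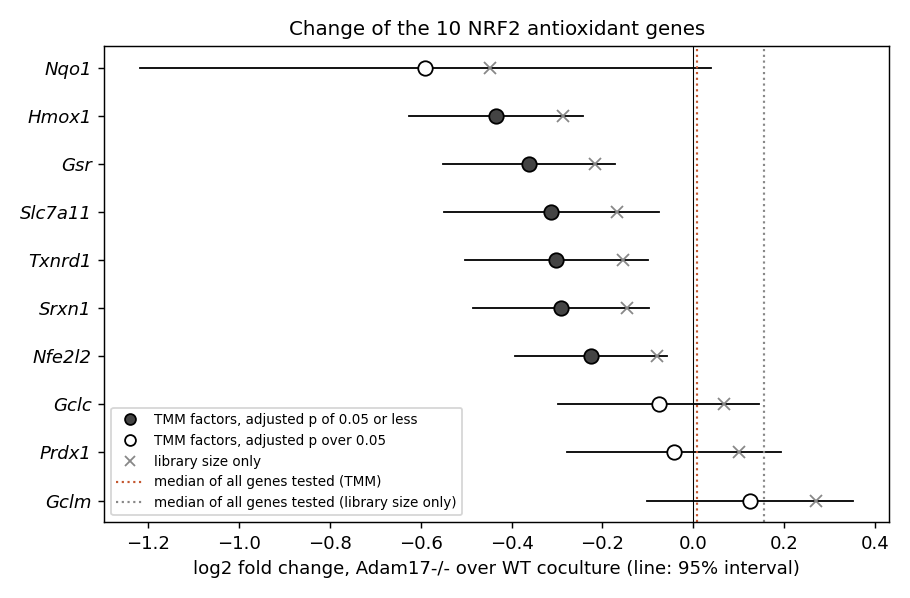
Log2 fold change of the 10 genes in macrophages cocultured with Adam17-/- over WT 4T1 cells (circles, with the 95% interval as a line; filled where the adjusted p was at most 0.05), and the same value with libraries scaled by size only (crosses). The 6 filled circles lie between -0.43 and -0.23, and under library size only each gene and the dotted median of all genes move to the right together, the median from 0.01 to 0.16.

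Letters of the ARE core could be read in the RefSeq promoter windows of GRCm38.p6, which run from 250 bases before to 50 bases after an annotated start. Windows were given for 7 of the 10 genes. *Hmox1*, *Gclc*, and *Gsr* had none in the table used. The core was searched as TGACNNNGC on both strands, and it stood in a window of 5 of the 7 genes, *Nfe2l2*, *Gclm*, *Txnrd1*, *Srxn1*, and *Prdx1*. Of all 27025 genes with a window, 14.0% held it, and of all 32851 windows, 12.4%. *Nqo1* and *Slc7a11* held none in this stretch, which does not reach the more distant elements known for several NRF2 targets. The search was extended, after the sequences had been seen, to TGANTCAGC, an AP-1 site (TGANTCA) followed by GC, which small MAF pairs also bind. This stood in the windows of *Srxn1* and *Prdx1*, and in 1.37% of all genes with a window. Stretches upstream of the start are shown because they hold the letters that NRF2 and its MAF partners are known to bind, each on the strand of its gene, with the matched letters in capitals. In *Gclm*, *Txnrd1*, and *Prdx1*, the match reads on the opposite strand, so that the capitals show its reverse complement.
Nfe2l2, chr2:75704875-75704913, minus strand: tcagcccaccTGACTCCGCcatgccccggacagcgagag
Gclm, chr3:122245403-122245451, plus strand: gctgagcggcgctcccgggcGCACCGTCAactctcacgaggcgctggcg
Txnrd1, chr10:82859094-82859142, plus strand: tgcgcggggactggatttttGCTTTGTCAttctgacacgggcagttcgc
Prdx1, chr4:116685446-116685494, plus strand: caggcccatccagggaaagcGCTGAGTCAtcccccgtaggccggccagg
Srxn1, chr2:152105459-152105507, plus strand: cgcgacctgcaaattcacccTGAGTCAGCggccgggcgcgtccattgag

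The match began 240 bases before the start in *Nfe2l2*, 134 in *Gclm*, 133 in *Prdx1*, and 92 in *Txnrd1*. In *Srxn1*, the AP-1 form began 45 bases before the start and the core match, TGACCTAGC on the opposite strand, lay 28 bases after it. Of the genes with the core, *Nfe2l2*, *Txnrd1*, and *Srxn1* fell in the coculture with *Adam17*-/- 4T1 cells, while *Gclm* and *Prdx1* did not pass. A match of letters is a description of the window and not a site at which binding was measured. The *Prdx1* match, TGACTCAGC, is both forms at once and overlaps an AP-1 site.

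The libraries held 14658685 to 20788356 counts, and a count of 3, taken as the floor under which levels have no meaningful order, stood for 0.157 to 0.197 CPM (counts scaled to the TMM-normalized library total). *Adam17* in the macrophages themselves was at 198 and 200 CPM in the WT libraries and 152, 164, and 161 CPM in the *Adam17*-/- libraries (log2 fold change -0.32, adjusted p = 0.0129, edgeR). Since the gene was edited in the other cells of the coculture, this level checks no label. All 12 macrophage markers had counts in these libraries. Together they summed to 31351 and 30273 CPM in the WT libraries against 19308, 20122, and 21574 CPM in the *Adam17*-/- libraries, and 10 of the 12 passed as lower. The marker counts here stand beside 16.8% lower and 14.9% higher over all genes tested. Of 13 markers of neutrophil precursors, 9 passed as higher, with sums of 1323 and 1364 CPM in the WT libraries and 2167 to 2441 CPM in the *Adam17*-/- libraries. Most of the WT sums was *Mmp8*, which did not pass, and without it they were 411 and 337 against 1164 to 1342 CPM. Of 8 megakaryocyte and platelet markers, 6 passed as higher (122 to 145 against 171 to 264 CPM in sum), and of 3 eosinophil markers tested out of 8, 1 did (5.25 to 7.06 against 14.0 to 19.5 CPM). The 9 dendritic cell markers summed to 15.2 to 19.99 against 23.0 to 29.4 CPM, with 2 higher and 1 lower of 6 tested. The 10 erythroid markers, of which *Hbb-bs* and *Hbb-bt* were at 0, summed to 23.4 to 36.1 CPM over both groups, mostly from *Tfrc* (18.3 to 30.7 CPM), and of 3 tested, *Hba-a1* was higher (1.73 and 0.595 against 2.96, 3.42, and 3.39 CPM, adjusted p = 0.0130). The 10 epithelial markers summed to 10.99 to 13.9 CPM, with *Krt5* at 0. Most of this was *Cdh1* (10.6 to 13.2 CPM), and without it the sums were 0.379 to 0.733 CPM. The sums of the erythroid and epithelial markers overlapped between the groups, and those of the other 5 marker lists did not. The part of these cells in the changes of the NRF2 antioxidant genes was not tested. In bulk RNA, fewer cells of a type and less RNA per cell cannot be told apart. The labels do not say whether the replicates came from separate mice or cultures, so the p-values measure the spread between these samples, which may be technical.

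*Nfe2l2* (Entrez Gene 18024, chromosome 2, 75675513 to 75704663), the gene of the factor itself, had 196 and 192 CPM in the WT libraries and 166, 164, and 167 CPM in the *Adam17*-/- libraries. The groups did not overlap, and the spread within each was small, 194 ± 2.82 CPM (SD, n = 2) against 166 ± 1.33 CPM (SD, n = 3). The log2 fold change was -0.23 (SE, standard error, 0.0746, adjusted p = 0.0447, edgeR), close to the threshold, and the call was lost in 11 of the 14 alternatives, among them DESeq2 (adjusted p = 0.0557) and each fit without 1 of the *Adam17*-/- replicates (0.152 to 0.183). Nearly all of its RNA was the coding transcript. The noncoding transcript NR_132727 held 2.62% and 3.26% of the *Nfe2l2* FPKM in the WT libraries against 3.67%, 5.15%, and 3.16% in the *Adam17*-/- libraries, ranges that overlap.

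*Hmox1* (15368, chromosome 8, 75093618 to 75100593, 5 exons), which encodes the enzyme that breaks heme down to biliverdin, carbon monoxide, and iron, had the smallest adjusted p of the 10 genes and the highest mean per length in both groups, although *Prdx1* was above it in *Adam17*-/- replicate 2 (265 against 244 FPKM). It had 542 and 501 CPM in the WT libraries and 379, 368, and 412 CPM in the *Adam17*-/- libraries. The lowest WT library was above the highest *Adam17*-/- library, and the means were 522 ± 29.1 CPM (SD, n = 2) and 386 ± 23.2 CPM (SD, n = 3). The log2 fold change was -0.43 (SE 0.0859, adjusted p = 0.00558, edgeR). It ranged from -0.49 to -0.29 over the 14 alternatives, with adjusted p-values from 9.96e-05 to 0.0426.

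*Nqo1* (18104, chromosome 8, 107388225 to 107403205, 6 exons), the reductase of quinones, was the lowest of the 10 genes. Its counts were 64 and 82 with WT and 30, 44, and 61 with *Adam17*-/- 4T1 cells, or 3.35 and 4.44 CPM against 1.64, 2.89, and 3.23 CPM. All 3 *Adam17*-/- libraries were below both WT libraries, but the highest of them was close to the lower WT library. The log2 fold change was -0.59, with a 95% interval from -1.22 to 0.04 (adjusted p = 0.136, edgeR), so that at this depth a large decrease and a slight increase both lie within the error. The value was -0.32 without *Adam17*-/- replicate 1, -0.38 without WT replicate 2, and -0.81 with the replicate number as a block (adjusted p = 0.0473, edgeR). In the block fit, *Adam17*-/- replicate 3 is alone with its number and does not enter the group difference.

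**Figure D2:**
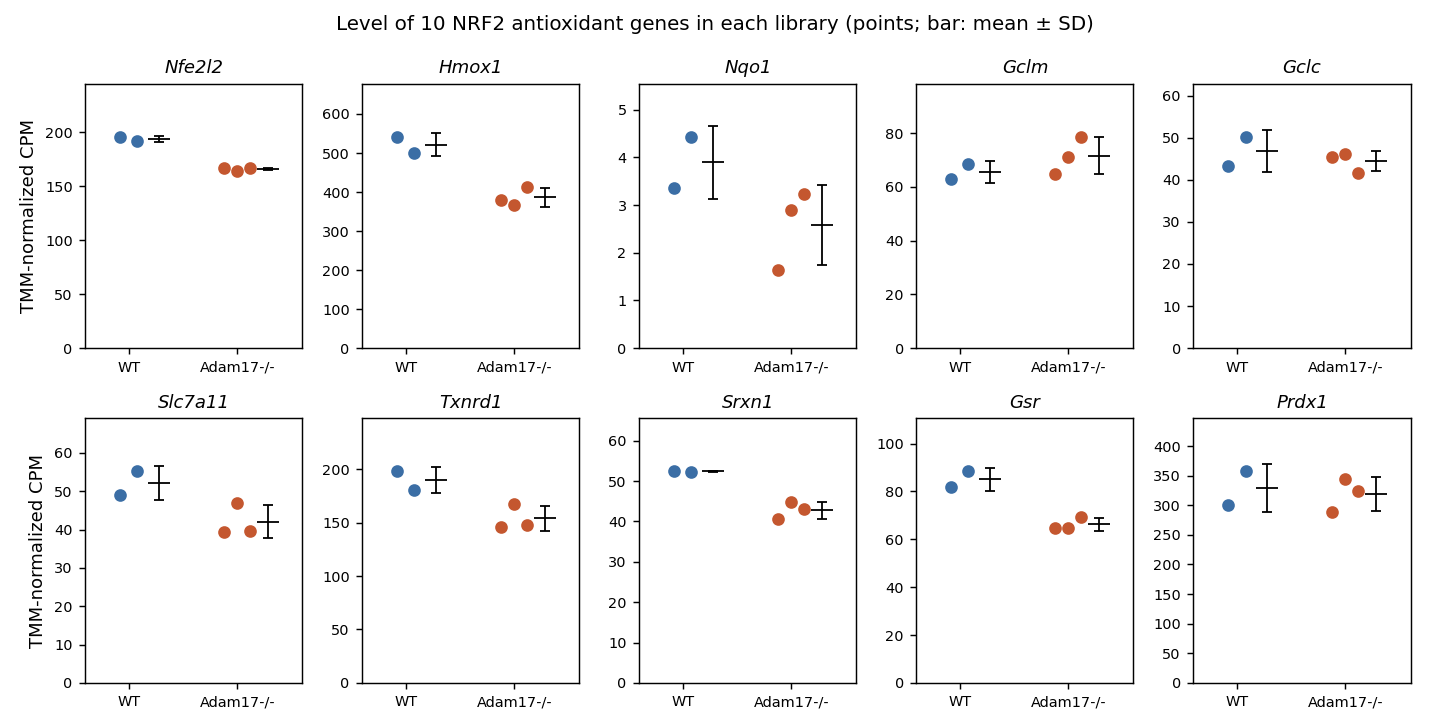
Level of each of the 10 genes in TMM-normalized CPM (vertical axis, from 0) in the 2 libraries of the WT coculture and the 3 of the Adam17-/- coculture (points), with the mean and SD of each group beside them. The groups are apart in Nfe2l2, Hmox1, Nqo1, Slc7a11, Txnrd1, Srxn1, and Gsr and overlap in Gclm, Gclc, and Prdx1.

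Glutathione is made from cysteine, which enters as cystine through the exchanger encoded by *Slc7a11*, and its rate is set by glutamate-cysteine ligase, a pair of a catalytic subunit (*Gclc*) and a modifier subunit (*Gclm*). *Slc7a11* (26570, chromosome 3, 50364936 to 50499087, 12 exons) had 49.1 and 55.2 CPM in the WT libraries and 39.5, 47.0, and 39.7 CPM in the *Adam17*-/- libraries. *Adam17*-/- replicate 2 lay close to WT replicate 1. Its log2 fold change was -0.31 (SE 0.106, adjusted p = 0.0488, edgeR), at the edge of the threshold, and the call was lost in 12 of the 14 alternatives, with adjusted p-values up to 0.372. Its counts were not whole, so some of its reads also matched other transcripts.

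*Gclc* (14629, chromosome 9, 77754535 to 77794489, 16 exons) had 43.2 and 50.3 CPM in the WT libraries and 45.4, 46.1, and 41.7 CPM in the *Adam17*-/- libraries. The groups overlapped, and the log2 fold change was -0.08 with a 95% interval from -0.30 to 0.15 (adjusted p = 0.589, edgeR). *Gclm* (14630, chromosome 3, 122245487 to 122267215, 7 exons) was the 1 gene of the 10 with a positive value, at 62.8 and 68.6 CPM in the WT libraries and 65.0, 71.2, and 78.8 CPM in the *Adam17*-/- libraries. These groups overlapped as well, and the log2 fold change was 0.13 with a 95% interval from -0.10 to 0.35 (adjusted p = 0.367, edgeR). In FPKM, by contrast, every *Adam17*-/- library lay above both WT libraries in *Gclm*, at 34.0, 36.9, and 40.7 against 28.8 and 32.9 FPKM, and limma on log2(FPKM + 0.1) gave a log2 fold change of 0.27 (adjusted p = 0.0775). The ratio of the modifier to the catalytic subunit, which no scaling of a library can move, was 2.45 and 2.30 (FPKM over FPKM) in the WT libraries against 2.41, 2.60, and 3.18 in the *Adam17*-/- libraries. The groups overlapped (exact permutation test, two-sided, p = 0.4, where 0.2 is the smallest value that this test allows for 2 samples against 3).

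The remaining genes reduce oxidized thiols, remove peroxides, or repair the enzymes that do so. *Gsr* (14782, chromosome 8, 33653238 to 33698162, 13 exons), glutathione reductase, had 81.7 and 88.4 CPM in the WT libraries and 64.7, 64.5, and 69.4 CPM in the *Adam17*-/- libraries. The groups were well apart, with a log2 fold change of -0.36 (SE 0.0847, adjusted p = 0.0114, edgeR). The call was lost in 6 of the 14 alternatives, where the adjusted p was at most 0.0920.

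*Txnrd1* (50493, chromosome 10, 82833951 to 82897724), the cytosolic thioredoxin reductase, had 198 and 181 CPM in the WT libraries and 146, 167, and 148 CPM in the *Adam17*-/- libraries. *Adam17*-/- replicate 2 was again the library nearest to the WT libraries. The log2 fold change was -0.30 (SE 0.0904, adjusted p = 0.0312, edgeR), and the call was lost in 7 of the 14 alternatives.

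*Txnrd1* was the 1 gene of the 10 with several coding transcripts listed. Of its FPKM, NM_001042513 held 71.2% and 67.0% in the WT libraries against 61.3%, 71.3%, and 70.5% in the *Adam17*-/- libraries. NM_015762, which starts at nearly the same base, held 19.4% and 22.7% against 28.2%, 17.5%, and 20.8%. Both start beside the window printed above, whereas NM_001042523, with 7.88% and 7.98% against 7.23% to 8.13%, starts further upstream. The shares of all 4 transcripts overlapped between the groups, and *Adam17*-/- replicate 1 stood apart from the other libraries in the balance of the 2 main transcripts. Shares of transcripts that overlap in sequence are estimates.

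**Figure D3:**
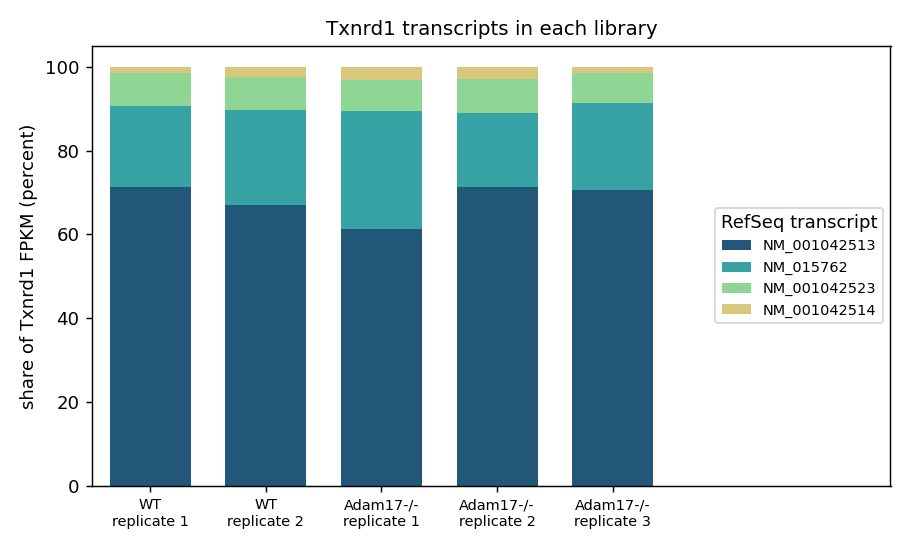
Share of the Txnrd1 FPKM (percent, stacked to 100) that each of the 4 listed RefSeq transcripts held in each of the 5 libraries. NM_001042513 held 61.3% to 71.3% of the FPKM in every library, with the lowest share in Adam17-/- replicate 1.

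*Srxn1* (76650, chromosome 2, 152105524 to 152111376, 2 exons), sulfiredoxin, which restores overoxidized peroxiredoxins, had 52.4 and 52.3 CPM in the WT libraries and 40.6, 44.7, and 43.2 CPM in the *Adam17*-/- libraries. The groups did not overlap, with a log2 fold change of -0.29 (SE 0.0861, adjusted p = 0.0294, edgeR), but the call was lost in 8 of the 14 alternatives. Its substrate *Prdx1* (18477, chromosome 4, 116685599 to 116700000, 6 exons), the abundant cytosolic peroxiredoxin, had 300.3 and 357 CPM in the WT libraries and 289, 345, and 324 CPM in the *Adam17*-/- libraries. The groups overlapped, and the log2 fold change was -0.04 with a 95% interval from -0.28 to 0.19 (adjusted p = 0.783, edgeR). The ratio of *Srxn1* to *Prdx1* was 0.0853 and 0.0716 (FPKM over FPKM) in the WT libraries against 0.0686, 0.0633, and 0.0651 in the *Adam17*-/- libraries. It was lower in all 3 *Adam17*-/- libraries (exact permutation test, two-sided, p = 0.2, the smallest value that this test allows).

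Levels of different genes can be compared only per length, as FPKM. In the WT libraries, the order was *Hmox1* (313 FPKM), *Prdx1* (230 FPKM), *Nfe2l2* (75.8 FPKM), *Txnrd1* (53.2 FPKM), *Gclm* (30.8 FPKM), *Gsr* (30.5 FPKM), *Srxn1* (17.8 FPKM), *Gclc* (13.0 FPKM), *Slc7a11* (5.36 FPKM), and *Nqo1* (2.47 FPKM). Of neighbors in this order, only *Gclm* and *Gsr* overlapped in their ranges. In the *Adam17*-/- libraries, the order was the same, with *Hmox1* (256 FPKM) and *Prdx1* (246 FPKM) now overlapping and *Gclm* (37.2 FPKM) apart from *Gsr* (26.2 FPKM). *Hmox1* made up 42.7% and 38.6% of the summed FPKM of the 10 genes in the WT libraries against 36.6%, 33.2%, and 36.7% in the *Adam17*-/- libraries. On the FPKM scale, 5 of the 10 genes were lower in every *Adam17*-/- library than in both WT libraries, against 18.1% of all genes tested, 1 (*Gclm*) was higher, against 41.5%, and 4 overlapped.

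**Figure D4:**
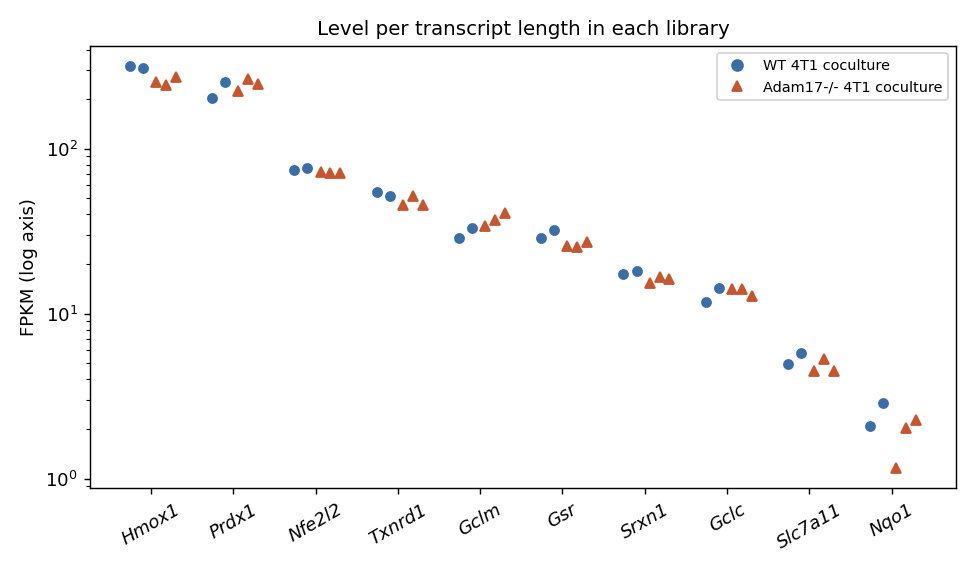
Level of the 10 genes per transcript length (FPKM, log axis) in each library, ordered by the WT mean, with circles for the WT and triangles for the Adam17-/- coculture. The genes span from 313 FPKM (Hmox1, WT mean) to 2.47 FPKM (Nqo1, WT mean), and the differences between the groups are small beside those between genes.

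Across the 5 libraries, the genes whose log2 CPM followed that of *Hmox1* most closely, among 8487 genes with a mean of at least 10 CPM, were *Sash3*, *Myc*, *Tbxas1*, *Mex3d*, and *Aldoa* (Pearson r from 0.9997 for *Sash3* to 0.9986 for *Aldoa* over 5 libraries, given as a description). Their changes ranged in size, with a log2 fold change of -0.43 for *Sash3*, -1.73 for *Myc*, and -0.31 for *Aldoa*. *Myc* had 67.6 and 51.5 CPM in the WT libraries and 15.7, 14.7, and 23.3 CPM in the *Adam17*-/- libraries, whereas *Aldoa* had 1924 and 1804 against 1479, 1461, and 1560 CPM.

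Around these 10 genes, 9 lists of related genes were described, with 133 of their 139 other genes tested. Of these, 37 (27.8%) passed as lower and 11 (8.27%) as higher, with a median log2 fold change of -0.17. The shares over all genes tested were 16.8% lower and 14.9% higher. With library size only, 19 (14.3%) passed as lower and 23 (17.3%) as higher, where the shares over all genes tested moved to 8.56% and 24%. Of the 34 genes that the naming rule picked from these lists, 14 kept their direction and call in every alternative and 20 lost the call in at least 1. Among the regulators of NRF2, *Keap1* had 79.2 and 74.6 CPM in the WT libraries and 65.6, 66.8, and 72.5 CPM in the *Adam17*-/- libraries (log2 fold change -0.17, adjusted p = 0.156, edgeR). *Bach1*, the repressor, had 105 and 146 CPM in the WT libraries and 145, 135, and 134 CPM in the *Adam17*-/- libraries, so that the WT replicates stood further apart than the groups (0.14, adjusted p = 0.437). Of the small MAF partners, *Mafg* (86.8 ± 1.37 against 85.6 ± 0.585 CPM, SD, n = 2 and 3) and *Mafk* (40.2 ± 4.95 against 38.5 ± 1.45 CPM) did not pass, while *Maff* fell from 12.1 and 14.2 CPM to 8.43, 9.14, and 10.1 CPM (-0.52, adjusted p = 0.0182). The related factor *Nfe2l1*, which drives proteasome genes, fell from 238 and 207 CPM to 143, 154, and 152 CPM (-0.57, adjusted p = 0.00181), and *Dpp3*, whose protein binds KEAP1, fell as well (-0.49). *Bach2* (0.76), a relative of *Bach1* best known from lymphocytes, and *Palb2* (0.45), which also binds KEAP1, rose. The calls of *Maff* and *Palb2* were each lost in 6 of the 14 alternatives. In all, 4 of the 14 regulators and partners passed as lower (28.6%, against 16.8% of all genes) and 2 as higher (14.3%, against 14.9%), with a median of -0.12.

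**Figure D5:**
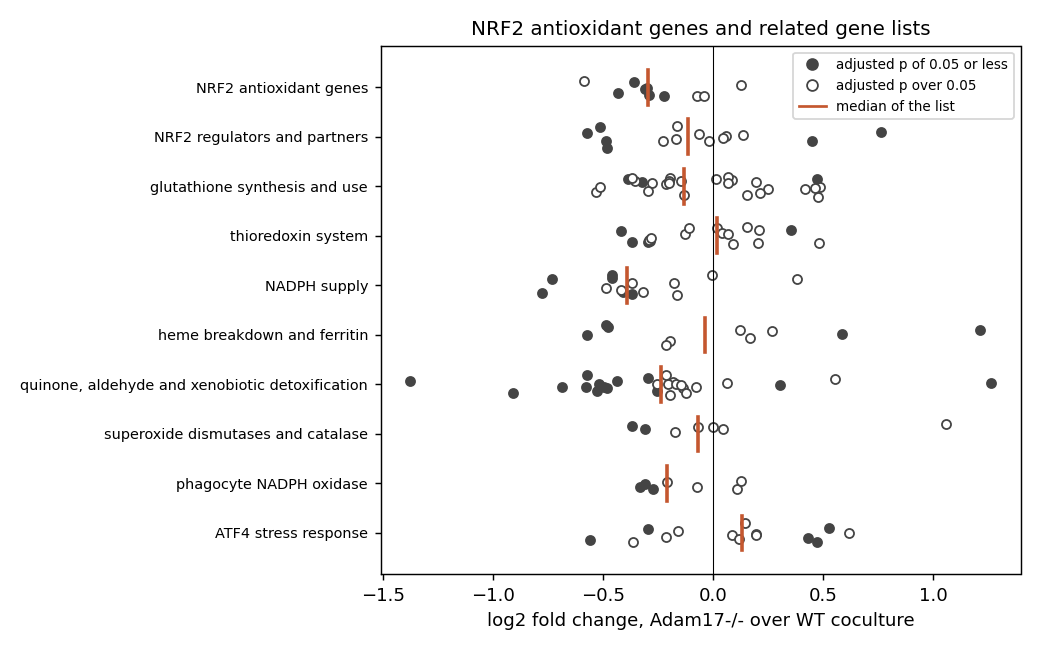
Log2 fold change of each gene tested in the 10 NRF2 antioxidant genes and the 9 related lists (points, filled where the adjusted p was at most 0.05; vertical bar: the median of the list). The NADPH supply list has the lowest median, -0.39, and the 10 NRF2 antioxidant genes stand at -0.30.

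NADPH, the electron source of *Gsr*, *Txnrd1*, and *Nqo1*, comes largely from the pentose phosphate pathway. Of 14 genes of NADPH supply, all tested, 6 (42.9%, against 16.8% of all genes) passed as lower and 0 (against 14.9%) as higher, with a median log2 fold change of -0.39. With library size only, where 8.56% of all genes passed as lower and 24% as higher, 4 passed as lower and 0 as higher. The counts were also 4 and 0 without any 1 of the *Adam17*-/- replicates. There, 926 of 12479, 1168 of 12451, and 1237 of 12408 genes tested passed as lower (without replicates 1, 2, and 3), and 1089, 1240, and 1208 as higher. *Tkt*, transketolase, fell from 279 and 236 CPM to 148, 155, and 162 CPM (-0.73, adjusted p = 0.000841, edgeR). *G6pdx*, the entry enzyme of the pathway, fell from 174 and 169 CPM to 116, 135, and 122 CPM (-0.46, adjusted p = 0.00491). *Mthfd1*, of folate metabolism, fell by 0.78 on the log2 scale. All 3 kept their call in the 14 alternatives.

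Downstream of *Hmox1*, biliverdin is reduced to bilirubin. Both biliverdin reductases fell with it, *Blvra* from 49.2 and 53.0 CPM to 38.04, 36.4, and 35.7 CPM (-0.48) and *Blvrb* from 80.3 and 69.4 CPM to 53.3, 48.5, and 58.4 CPM (-0.49). So did *Hmox2*, the constitutive heme oxygenase (-0.57), although its counts were not whole. These 3 calls held in the 14 alternatives. *Slc40a1*, the iron exporter ferroportin, rose from 13.3 and 9.15 CPM to 16.9, 17.6, and 16.1 CPM (0.58, adjusted p = 0.0199), and *Hpx*, hemopexin, rose from a low level, 0.523 and 0.704 CPM, to 1.09, 1.32, and 1.85 CPM (1.21, adjusted p = 0.0353). The call of *Slc40a1* was lost in 2 of the 14 alternatives and that of *Hpx* in 6. Of the 10 genes of this list that were tested, 3 passed as lower and 2 as higher (16.8% and 14.9% over all genes), with a median of -0.04.

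Among 26 detoxification genes, 12 passed as lower (46.2%, against 16.8% of all genes) and 2 as higher (7.69%, against 14.9%), with a median of -0.24. *Cbr2*, a carbonyl reductase, fell from 5.13 and 3.52 CPM to 1.37, 1.64, and 1.96 CPM (-1.38, adjusted p = 0.00377), *Akr1b8*, an aldo-keto reductase, by 0.91, and *Aldh2*, mitochondrial aldehyde dehydrogenase, by 0.69. *Cyp4f18*, a leukotriene-metabolizing cytochrome, rose from 4.396 and 2.65 CPM to 9.19, 8.55, and 7.73 CPM (1.26, adjusted p = 0.00274). *Akr1b10* also rose (0.30, adjusted p = 0.0292, lost in 4 alternatives), but its counts and those of *Akr1b8* were not whole, and reads of such paralogs are divided between them by estimate.

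In the glutathione list, 27 of 31 genes were tested and 24 of them did not pass. Of the 27, 7.41% passed as lower and 3.70% as higher, both under the shares over all genes of 16.8% and 14.9%. *Gstp1* (-0.39) and *Glrx* (-0.32), glutaredoxin, fell and *Mgst1* (0.47), a microsomal glutathione transferase, rose, with a list median of -0.13. Their calls were lost in 5 (*Gstp1*), 8 (*Glrx*), and 1 (*Mgst1*) of the 14 alternatives. In the thioredoxin list, 4 of 17 genes (23.5%, against 16.8% of all genes) passed as lower, among them mitochondrial thioredoxin, *Txn2* (-0.42), and the peroxiredoxin *Prdx5* (-0.37). Only *Msrb1*, a methionine sulfoxide reductase, passed as higher (0.35), which is 5.88% of the list against 14.9% of all genes. The median was 0.02. These calls were lost in 3 (*Txn2*), 5 (*Prdx5*), and 3 (*Msrb1*) alternatives. Of 7 dismutase and catalase genes, *Cat* (-0.37) and *Sod2* (-0.31) fell (28.6%, against 16.8% of all genes) and 0 rose (against 14.9%). The calls of *Cat* and *Sod2* were lost in 6 and 7 of the 14 alternatives. Of 7 genes of the phagocyte NADPH oxidase, which makes superoxide, 3 fell (42.9%, against 16.8% of all genes) and 0 rose (against 14.9%). Among those that fell were *Rac2* (-0.33, lost in 6 alternatives) and *Cyba* (-0.31, lost in 9).

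*Slc7a11* is also a target of ATF4, the factor of the amino acid stress response. Of 14 genes tested of an ATF4 list, 3 rose, *Trib3* (0.52), *Atf3* (0.47), and *Nupr1* (0.43), and 2 fell, *Psat1* (-0.56) and *Sesn2* (-0.30), with a median of 0.13. These are 21.4% and 14.3% of the list, near the shares over all genes of 14.9% higher and 16.8% lower. *Sesn2* is a target of NRF2 as well and was counted in the thioredoxin list too. Of these 5, *Atf3* kept its call in the 14 alternatives. The call was lost in 10 of the 14 for *Psat1*, 9 for *Sesn2*, 7 for *Trib3*, and 2 for *Nupr1*.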

How the data were processed

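The groups of the macrophage RNA-Seq libraries (2 WT and 3 *Adam17*-/- cocultures) came from the labels. Poly(A) RNA was sequenced by the authors on a BGISEQ-500 platform and aligned to GRCm38 with HISAT, with Bowtie2 used for expression levels. The submitters' processing notes also list RSEM, Bowtie, DESeq2, and mm10, and versions are not given in the sources used here. Deposited per transcript were an expected count, as estimated without normalization, and FPKM, scaled by the authors to length and library size. Transcripts under 0.01 FPKM are not listed and counted as 0. Strand handling is not given. Per library, 1 row without a gene ID (2 to 15 counts) was left out, and 17015 of 17057 Entrez IDs matched a RefSeq symbol.

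Expected counts were summed per gene, rounded, and tested across all genes with edgeR 4.0.16 in R 4.3.3 (TMM, filterByExpr, glmQLFit, glmQLFTest, no covariate, Benjamini-Hochberg). Standard errors were computed as the fold change over the root of F, and 95% intervals from the fit's degrees of freedom. Levels are TMM-normalized CPM, and a prior count of 2 entered log2 CPM. With 2 samples against 3, the two-sided exact test used here, which doubles the smaller tail, cannot go under 0.2. The p-values of single genes therefore rest on the spread estimated across genes.

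Alternatives were DESeq2 1.42.0, its size factors, upper quartile factors, library size only, limma 3.58.1 on log2(FPKM + 0.1) and log2(FPKM + 1), whose fold changes understate low genes, no filter, at least 10 counts in every library, a replicate block, and each replicate left out (WT fits assume that the lone sample varies like the others). The steps were tested on simulated data. Python 3.11.15, pandas 2.3.3, scipy 1.17.1, and matplotlib 3.10.9 were used.

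The members, the 9 related lists, and the 7 marker lists were chosen with earlier results of these data known. Named from each related list were at most 3 genes a direction with the largest log2 fold change among those that passed, with a mean of at least 1 CPM and groups that did not overlap, besides *Keap1*, *Bach1*, the small MAF genes, *Adam17*, and the 5 genes most like the member with the smallest p. Of the genes that this rule names, 1 is not reported here.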

Additional observations from a re-analysis of the deposited data

How the results depend on the processing

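The 6 NRF2 antioxidant genes that fell (0 rose) are set here against 1869 genes higher and 2114 lower over all genes, and 11 higher and 37 lower in the related lists. With library size only, 1 of the 10 fell, with 3019 and 1077 over all genes and 23 and 19 in the related lists. With log2(FPKM + 0.1), it was 1, with 2927 and 1016 over all genes and 23 and 19 in the lists, and with log2(FPKM + 1), 1, with 2867 and 1011 and again 23 and 19. Of all calls, 46.9% were higher in the main fit and 73.7% with library size only. Upper quartile factors gave 2 of the 10 (2237 higher and 1624 lower over all genes), DESeq2 gave 4 (1581 and 1893), and at least 10 counts in every library gave 4 (1881 and 1995). The limit of 1 on the log2 fold change left 0 of the 10, 422 and 109 over all genes, and 2 and 1 in the lists. Leaving out 1 replicate gave 1 to 6 of the 10, 1089 to 2460 genes higher and 926 to 2940 lower over all genes, and 5 to 18 higher and 19 to 51 lower in the lists. *Hmox1* kept its call in all 14 alternatives. The cause of these differences was not tested.

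Of the members that did not pass, *Gclc* and *Prdx1* changed sign, as did the regulators *Bach1*, *Mafg*, and *Mafk*. *Gclc* stood at 0.0692 with library size only, 0.0737 with log2(FPKM + 0.1), 0.0688 with log2(FPKM + 1), and between -0.19 and 0.0344 when 1 replicate was left out. *Prdx1* stood at 0.0144 with upper quartile factors, 0.10 with library size only, 0.11 with both FPKM tests, and between -0.17 and 0.0858 with 1 replicate left out. *Bach1* lay between -0.0857 and 0.39 with 1 replicate left out, and without WT replicate 2 it passed as higher (0.39, adjusted p = 0.00167). *Mafg* stood at 0.0363 with upper quartile factors, 0.13 with library size only and log2(FPKM + 0.1), 0.12 with log2(FPKM + 1), and between -0.0391 and 0.00544 with 1 replicate left out. *Mafk* stood at 0.0833 with library size only, 0.0863 with log2(FPKM + 0.1), 0.0810 with log2(FPKM + 1), and between -0.19 and 0.0613 with 1 replicate left out.

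With the replicate number as a replicate block, 2 of the 10 genes passed as lower (*Hmox1* and *Nqo1*), with 1216 higher and 1126 lower over all genes and 5 and 22 in the lists, of which 3 lower in NADPH supply. *Adam17*-/- replicate 3 has no WT library of its number, so the group difference in this fit rests on replicates 1 and 2 of each group. The labels give the samples only a number in common. Deviations of same-numbered samples correlated at -0.124 for number 1 and -0.0504 for number 2 over 12576 genes. With 2 WT libraries, their deviations from the WT mean mirror each other, so the other pairings give the same values with the sign reversed. These correlations cannot tell whether the numbers mark shared mice or cultures.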
